A study of Homo sapiens with 34 samples.

Results

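The genes described here are 10 transcription factors of the B lineage, chosen by name: *PAX5*, *EBF1*, *TCF3*, *LEF1*, *IKZF1*, *IKZF3*, *IRF4*, *IRF8*, *BACH2* and *BCL6*. All 10 were listed in each of the 6 deposited comparisons, among 13307 genes listed in all 6 and 17587 listed in at least 1. RNA-seq was done on 3 human cell lines of B-cell precursor acute lymphoblastic leukemia (B-ALL), each with its own driver fusion. They were BV-173 with BCR-ABL, NALM-6 with ETV6-PDGFRB, and RS4;11 with MLL-AF4. In each line, cells carrying a lentiviral shRNA against *CCND3* (shCCND3) were set against cells carrying a scrambled shRNA, both sorted on day 4 after transduction, and cells given 1 µM palbociclib for 3 days were set against cells given the solvent DMSO. The 12 groups held 34 samples, 3 in each but for 2 in the shCCND3 group of NALM-6 and 2 in the DMSO group of BV-173. The sequenced knockdown cells carried a single *CCND3* shRNA, each genotype is represented by 1 established line, and the labels do not say which samples were separate cultures.

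B-cell identity is set up stepwise: TCF3 opens the programme, EBF1 and then PAX5 commit the cell to the B lineage, and the Ikaros factors IKZF1 and IKZF3 control the passage through the pre-B stage. IRF4 and IRF8 act downstream of the pre-B-cell receptor, where they slow the cell cycle and start light chain recombination. BACH2 and BCL6 are repressors that act around the same checkpoint, and LEF1, a partner of β-catenin, is a factor of pro-B-cell growth. *CCND3* encodes cyclin D3, which activates CDK4 and CDK6, and palbociclib inhibits the kinase activity of both, so the design asks which genes respond to loss of the cyclin and which to loss of kinase activity.

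The tables give 1 level per group, scaled within the pair of groups compared, so no spread between samples and no depth per sample can be given. The levels of a group summed to 17810468 to 20756235, and 14763 to 15944 genes were listed per comparison. The *CCND3* level was 19499 in scrambled and 4727 in shCCND3 cells of NALM-6, 16178 and 3353 in RS4;11, and 6619 and 2060 in BV-173, so the knockdown left 20.7% to 31.1% of the control level. The lines carried their labelled lineage: all 9 B precursor markers (among them *CD79A*, *CD22* and *VPREB1*) were listed in every comparison, with a summed level of 44822 to 120356. Of 6 T cell markers 2 to 5 were listed, summing to 0.869 to 8.49, and of 5 erythroid markers 0 to 2, summing to at most 1.22. Myeloid markers (5 or 6 of 6 listed) summed to 92.8 to 1168, and the 5 plasma cell markers to 5876 to 73561, a total made up largely of *XBP1* and, in BV-173, of *JCHAIN* at 46133 to 65537.

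A gene is counted below as past the fold when its 2 group levels differed at least 1.5-fold, which is a description of those groups and no test. The test across lines took the log2 ratio of treated to control in each line and fitted it with limma over the 3 lines as replicates, with Benjamini-Hochberg adjustment over all genes fitted and a call at an adjusted p under 0.05. Its effects are mean log2 ratios with a standard error (SE), n = 3 lines. In this test no gene was called in the knockdown (0% of 13877 genes, with 2936 at an unadjusted p under 0.05), 4.79% of 13788 were called under palbociclib, and none in the difference between the treatments (0% of 13307, with 2769 at an unadjusted p under 0.05). Even *CCND3* itself, lower by design in all 3 lines (mean log2 ratio -2.00, SE 0.15), had a limma adjusted p of 0.0773 in the knockdown. None of the 10 transcription factors was called in any of the 3 contrasts, and "higher" and "lower" below refer to the group levels of each line. The limma call of *IRF8* depends on the variance model, as given below.

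Among the start sites of these genes, that of *BCL6* stood out by its sequence. Promoter windows from RefSeq (GRCh38.p14, 250 bases before to 50 after a start site) were found for 9 of the 10 genes, 13 windows in all, with none for *IKZF3*. They were searched on both strands for the FOXO motif GTAAACA, the E2F motif TTCCCGC, the cell cycle element CHR (TTTGAA) and the STAT site GAS (TTCNNNGAA), which 3.42%, 6.56%, 15.2% and 7.67% of 34796 human promoter windows hold. Across the 13 windows 7 matches were found, none overlapping a match of another motif. *BCL6* held 4 GAS matches around its start site at chromosome 3 position 187745468 on the minus strand, while 0.454% of all windows hold at least 2 and 0.0201% hold at least 4. The central pair, of which the first match spans the start site and the second lies after it, is shown with its surroundings because the *BCL6* ratios spread most widely of the 10, and the outer 2 are shown as the 9 matching bases. Capitals mark the matches, 5′ to 3′ on the gene's strand.
BCL6, chr3:187745447-187745476, bases -8 to 21 from the start site: tgaTTCTTAGAActggggTTCTTAGAAgtg
BCL6, chr3:187745488-187745496, from base -28: TTCCGAGAA
BCL6, chr3:187745424-187745432, from base 36: TTCTAGGAA

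An E2F match lay in the windows of *IRF4* and *PAX5*, and *LEF1* held a CHR match 42 bases after the start site of its window. The windows of *LEF1* and *IRF8* belong to start sites inside the genes as annotated, not to their outermost ends. The E2F matches are shown as 30 bases each because E2F factors are the textbook output of the cyclin D pathway, with the match in capitals. *IRF8*, the only one of the 10 genes that was higher in all 6 comparisons, held none of the 4 motifs, and the 109 bases of its window ahead of the first annotated exon in it are shown for that reason. A match is a description of the letters and no evidence of binding.
IRF4, chr6:391538-391567, plus strand, bases -214 to -185: tcgccaagggcGCGGGAAccccaccccggc
PAX5, chr9:37034441-37034470, minus strand, bases -202 to -173: gctctcccggcTTCCCGCtctactccggcc
IRF8, chr16:85902580-85902688, plus strand, bases -250 to -142: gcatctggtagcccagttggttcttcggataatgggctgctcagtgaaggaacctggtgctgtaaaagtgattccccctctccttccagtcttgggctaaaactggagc

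Knockdown of *CCND3* came with 4 of the 10 genes past the fold in NALM-6, 2 in RS4;11 and 3 for BV-173. The shares of all listed genes past it were 16.3%, 19.4% and 8.09%, in the same order of lines, which is kept below wherever 3 values stand without a line. Under palbociclib 2, 3 and 4 of the 10 were past the fold, where 36.3%, 31.7% and 25.5% of all listed genes were. The share of members was thus near that of all genes in RS4;11 under both treatments, above it in NALM-6 under knockdown and in BV-173 under both, and below it in NALM-6 under palbociclib. In bulk RNA, fewer cells of a kind and less RNA per cell cannot be told apart. Over the 6 comparisons 18 of 60 values were past the fold, 12 higher and 6 lower. The median log2 ratio of the 10 genes was -0.12, 0.11 and -0.39 in the 3 knockdowns, beside 0.01, 0.01 and -0.01 over all genes. Under palbociclib it was 0.01, 0.17 and -0.35, beside 0.06, 0.01 and 0.04. In BV-173 these medians were below 0 under both treatments, though 2 members were past the fold higher in each.

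**Figure D1:**
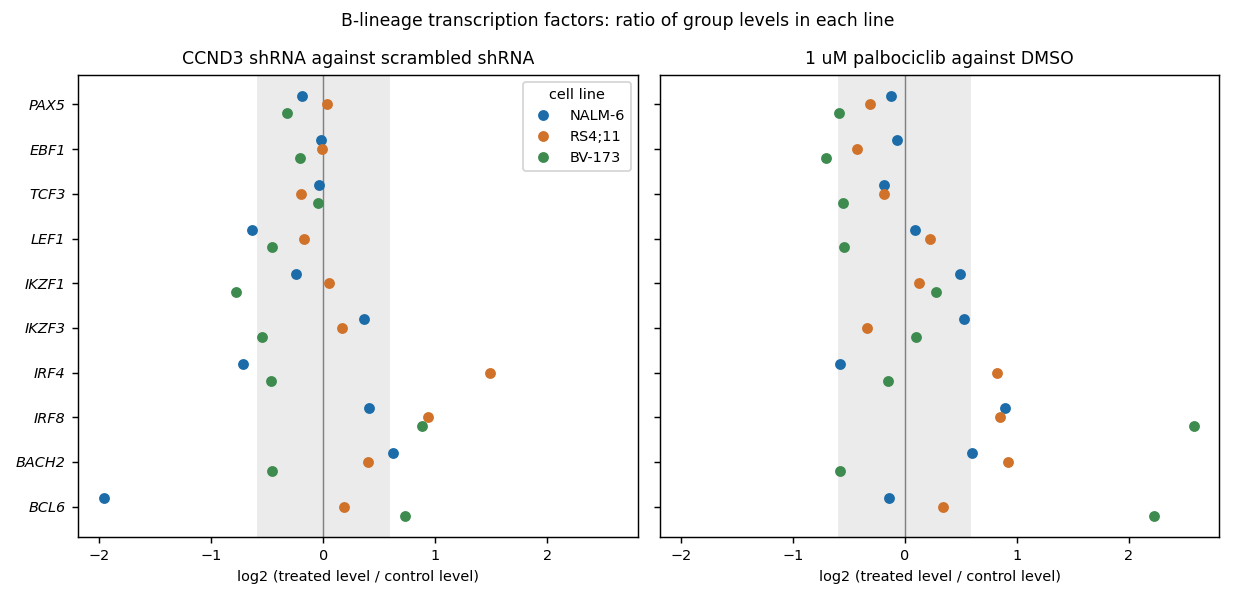
Log2 ratio of treated to control level (x axis) for the 10 transcription factors (rows) under CCND3 shRNA (left) and palbociclib (right), 1 point per cell line, with the grey band marking ratios under 1.5-fold. IRF8 lies right of 0 in all 6 comparisons, EBF1 and TCF3 lie left of 0 in all 6, and BCL6 runs from -1.96 in NALM-6 under knockdown to 2.22 in BV-173 under palbociclib.

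The factors that start and hold B-lineage commitment were lower after treatment in most comparisons, by small amounts. *EBF1* (chromosome 5, 158695920 to 159099916), the factor that opens B-lineage chromatin, went from 6044 in scrambled to 5978 in shCCND3 cells of NALM-6, from 3644 to 3627 in RS4;11 and from 4819 to 4157 in BV-173. From DMSO to palbociclib it went from 7087 to 6775, 3986 to 2962 and 5113 to 3148 in the same order of lines. The knockdown values were nearly level in NALM-6 and RS4;11, and the lowest ratio was that of BV-173 under palbociclib, 61.6% of its control. *PAX5* (chromosome 9, 36833269 to 37034268), the guardian of B-cell identity, went from 17673 to 15517, 14639 to 14992 and 10369 to 8320 under knockdown. Under palbociclib it went from 15866 to 14568, 12387 to 10021 and 11865 to 7880, a ratio in BV-173 of 66.4% that lay just past the fold. *PAX5* was thus lower in 5 of the 6 comparisons.

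*TCF3* (chromosome 19, 1609292 to 1652615), which encodes the E proteins E12 and E47, had the narrowest range of ratios of the 10 under knockdown. Its level went from 14062 to 13709 in NALM-6, 15877 to 13845 in RS4;11 and 24487 to 23702 in BV-173. Palbociclib took it from 19982 to 17569, 15013 to 13137 and 22555 to 15380, again with the lowest ratio in BV-173. *EBF1* and *TCF3* were the 2 of 10 members lower in all 6 comparisons, as were 15.3% of all genes. The limma effect of palbociclib was -0.40 for *EBF1* (SE 0.18, adjusted p = 0.229), -0.34 for *PAX5* (SE 0.17, adjusted p = 0.246) and -0.31 for *TCF3* (SE 0.16, adjusted p = 0.269). The knockdown effects by the same limma fit were -0.08 (SE 0.12), -0.16 (SE 0.13) and -0.09 (SE 0.12), none with an adjusted p under 0.538. The ordering of lines was the same for the 3 genes under palbociclib, in that BV-173 had the lowest ratio and NALM-6 the highest or joint highest.

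*LEF1* (chromosome 4, 108047548 to 108168932) had lower levels after knockdown in all 3 lines but not after palbociclib. It went from 10692 to 6842 in NALM-6, 22703 to 20177 in RS4;11 and 9359 to 6824 in BV-173 under knockdown, past the fold in NALM-6. From DMSO to palbociclib it went from 12225 to 13017, 27684 to 32168 and 13416 to 9202. It was therefore slightly higher with the inhibitor in NALM-6 and RS4;11 and lower in BV-173 alone. The limma effect of knockdown was -0.42 (SE 0.14, adjusted p = 0.176), and its difference from palbociclib was -0.34 (SE 0.20, adjusted p = 0.383).

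*IKZF1*, encoding Ikaros, a factor often deleted in BCR-ABL leukemia, had opposite mean ratios under the 2 treatments. On chromosome 7 (50303455 to 50405101), it went from 3879 to 3279 in NALM-6, 6948 to 7204 in RS4;11 and 1755 to 1022 in BV-173 with shCCND3. With palbociclib it went from 3875 to 5443, 7576 to 8297 and 2221 to 2695, higher in each line though nowhere past the fold. The knockdown value in BV-173, 58.2% of control, was the only one of the 6 past the fold. The limma effects were -0.32 (SE 0.18, adjusted p = 0.373) under knockdown and 0.30 (SE 0.16, adjusted p = 0.27) under palbociclib. The difference between treatments was -0.62 (SE 0.23) with an unadjusted p = 0.0443 and a limma adjusted p = 0.23, and the knockdown ratio was below the palbociclib ratio in 3 of 3 lines.

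*IKZF3* (chromosome 17, 39757715 to 39864312), encoding Aiolos, had low levels in all lines. It went from 101.5 to 130.5 in NALM-6, 68.4 to 76.7 in RS4;11 and 492.9 to 336.4 in BV-173 under knockdown. Under palbociclib it went from 72.8 to 105.3, 48.5 to 38.4 and 294.6 to 316.8. No ratio passed the fold, and neither treatment moved it the same way in all lines. The limma effects were -0.01 (SE 0.20, adjusted p = 0.987) and 0.10 (SE 0.22, adjusted p = 0.785).

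*IRF8* (chromosome 16, 85899162 to 85922609), an interferon regulatory factor of B-cell and myeloid development, was higher after both treatments in every line. Under knockdown it went from 144.8 to 193.0 in NALM-6, 886.6 to 1688 in RS4;11 and 253.1 to 466.1 in BV-173, ratios of 1.33, 1.90 and 1.84. Under palbociclib it went from 69.6 to 129.1, 810.8 to 1464 and 112.8 to 673.7, ratios of 1.86, 1.81 and 5.97. It was the 1 member of 10 higher in all 6 comparisons, as were 12.5% of all genes. It was also the 1 member at least 1.5-fold higher in all 3 lines under palbociclib, where 4.53% of all genes were, while 0.584% of all genes and no member were so under knockdown.

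By limma *IRF8* missed the threshold in both treatments, with an effect of 0.74 under knockdown (SE 0.15, adjusted p = 0.0842, higher in 3 of 3 lines) and 1.44 under palbociclib (SE 0.40, adjusted p = 0.0992, higher in 3 of 3 lines). With a prior variance that follows the level of the gene *IRF8* passed in both (limma adjusted p = 0.0368 and 0.0478). That prior called 5.58% of all genes under knockdown and 13.8% under palbociclib, beside 0% and 4.79% in the main fit. The difference between treatments was -0.70 (SE 0.37, adjusted p = 0.343) in the limma fit, and it includes the difference between the 2 controls. On the common scale described below, the shCCND3 level was above the palbociclib level in NALM-6 (181 and 128) and RS4;11 (1682 and 1440). It was below it in BV-173 (489 and 728). The 5.97-fold value of BV-173 rested on a DMSO level of 112.8, below the 253.1 of scrambled cells in that line. In the same comparison the summed myeloid markers went from 237 to 587, with *CSF1R* at 145 and 513, and the part of this in the *IRF8* value was not tested. The myeloid sum was also higher after palbociclib in NALM-6 (105 and 174) and lower in RS4;11 (641 and 550). Under knockdown it was 92.8 and 131 in NALM-6, 972 and 1168 in RS4;11, and 272 and 261 in BV-173, so it was higher with *IRF8* in 4 of the 6 comparisons.

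*IRF4*, the close relative of *IRF8* in B cells, differed between lines rather than between treatments. The gene (chromosome 6, 391752 to 411443) went from 4610 to 2792 in NALM-6 and from 5050 to 3656 in BV-173 under knockdown, but from 307.5 to 862.4 in RS4;11. Palbociclib gave the same directions, with 5777 to 3859 in NALM-6, 4841 to 4354 in BV-173 and 236.8 to 417.6 in RS4;11. In RS4;11, the line with the lowest level, *IRF4* was thus 2.80-fold and 1.76-fold higher, and in the lines with high levels it was lower. With lines of opposite direction the limma effects were 0.10 (SE 0.43) and 0.03 (SE 0.30), and the sign of the second turned when each table was centred on its median.

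*BACH2* (chromosome 6, 89926528 to 90296843), a repressor of plasma cell genes and an enforcer of the pre-B checkpoint, also kept the direction of each line under both treatments. Under knockdown it went from 5911 to 9056 in NALM-6, 535.4 to 706.3 in RS4;11 and 679.0 to 493.2 in BV-173. Under palbociclib it went from 8745 to 13233, 431.7 to 817.7 and 1019 to 683.7. It was higher in NALM-6 and RS4;11, past the fold in 3 of those 4 comparisons, and lower in BV-173 under both treatments, at 72.6% and 67.1% of control. The limma effects were 0.18 (SE 0.23, adjusted p = 0.687) and 0.31 (SE 0.33, adjusted p = 0.553).

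*BCL6* (chromosome 3, 187721377 to 187745468), a repressor that protects pre-B and leukemia cells from DNA damage signals, had the widest spread of the 10. In the knockdown of NALM-6 it went from 1043 to 268.6, the largest lower ratio among the members at 25.8% of control. In RS4;11 it went from 2241 to 2545 and in BV-173 from 797.5 to 1322, 1.66-fold higher. Palbociclib left it at 293.5 and 265.5 in NALM-6 and at 2796 and 3538 in RS4;11, and took it from 313.2 to 1455 in BV-173, 4.65-fold higher. BV-173 was the line in which it was past the fold under both treatments.

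The limma effects of *BCL6* were -0.35 (SE 0.50, adjusted p = 0.734) under knockdown and 0.80 (SE 0.49, adjusted p = 0.33) under palbociclib. Their difference was -1.15 (SE 0.36, adjusted p = 0.192), with the knockdown ratio below the palbociclib ratio in 3 of 3 lines. This difference includes that between the 2 controls, whose log2 ratio of scrambled to DMSO was 1.76, -0.29 and 1.32 on the common scale described below. On that scale the shCCND3 and palbociclib levels were 253 and 263 in NALM-6, 2537 and 3478 in RS4;11, and 1388 and 1574 in BV-173. Without NALM-6 the knockdown effect turned to 0.46. The start site of this gene is the one with the 4 GAS matches printed above.

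Because each treatment has its own control, the controls of a line were also compared. For this the 12 groups were put on a common scale by the median of ratios over the 13307 genes, with factors of 0.92 to 1.09, as a description with no test. In NALM-6 3 members differed at least 1.5-fold between scrambled and DMSO cells (21.2% of all genes did), in RS4;11 none (14.2%) and in BV-173 4 (19.2%). *BCL6* stood at 957 in scrambled and 283 in DMSO cells of NALM-6, a ratio of 3.38, and at 828 and 332 in BV-173, a ratio of 2.49. The shCCND3 level of *BCL6* in NALM-6 was 253 on this scale, close to the 283 of DMSO cells and the 263 of palbociclib cells, so the low *BCL6* ratio of the knockdown in NALM-6 came with a high scrambled level. In BV-173 shCCND3 cells stood at 1388 and palbociclib cells at 1574, above both controls.

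*IRF8* was likewise higher in scrambled than in DMSO cells, at 133 and 67.0 in NALM-6 and 263 and 120 in BV-173. Its shCCND3 levels of 181, 1682 and 489 were above both controls of each line. Its palbociclib levels were above both controls in RS4;11 (1440) and BV-173 (728). In NALM-6 the palbociclib level, 128, was above the DMSO control but just below the scrambled control. *BACH2* was lower in scrambled cells, 5423 against 8429 in NALM-6 and 705 against 1081 in BV-173. Its shCCND3 level in NALM-6, 8515, was above the scrambled control and about level with the DMSO control. *IKZF3* in BV-173 was the remaining member past the fold between controls, at 512 and 312. Transduction, sorting and time in culture differed between the controls and cannot be told apart.

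**Figure D2:**
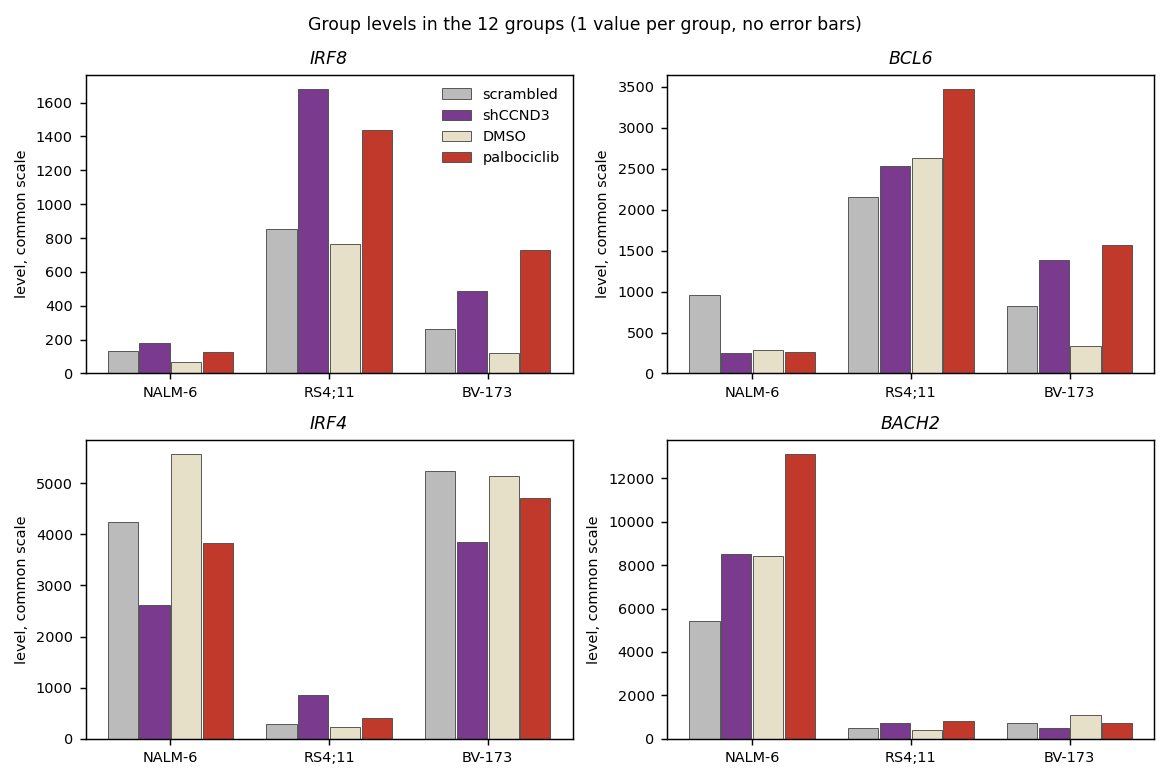
Levels of IRF8, BCL6, IRF4 and BACH2 on the common scale (y axis, linear from 0) in the 12 groups, with 4 bars per cell line and 1 value per group. For BCL6 in NALM-6 the scrambled bar (957) stands above the other 3 (253 to 283), and for IRF8 both treated bars stand above both controls in RS4;11 and BV-173.

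The control levels also rank the lines. Over both controls, *IRF4* was 20.2-fold higher in BV-173 than in RS4;11, with NALM-6 next to BV-173 (ratio 1.07, with overlapping control values). *BACH2* was 14.7-fold higher in NALM-6 than in RS4;11, with BV-173 between and all 3 lines apart. *IRF8* ran the other way, highest in RS4;11 at 8.57-fold the level of NALM-6, and the ranges of BV-173 and NALM-6 overlapped.

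*IKZF3* was highest in BV-173, 7.27-fold over RS4;11, and *IKZF1* highest in RS4;11, 3.34-fold over BV-173, so that the Ikaros genes had opposite orders of lines. *BCL6* was 4.59-fold higher in RS4;11 than in NALM-6, with NALM-6 and BV-173 overlapping, and *LEF1* 2.22-fold, again with an overlap of those 2 lines. *EBF1*, *TCF3* and *PAX5* differed least, by 1.69-, 1.67- and 1.35-fold between the highest and the lowest line. RS4;11 was thus the line with high *IRF8*, *BCL6*, *LEF1* and *IKZF1* and with low *IRF4*, *BACH2*, *EBF1* and *IKZF3*. Each line is 1 genotype, so the fusion and every other trait of a line cannot be told apart.

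**Figure D3:**
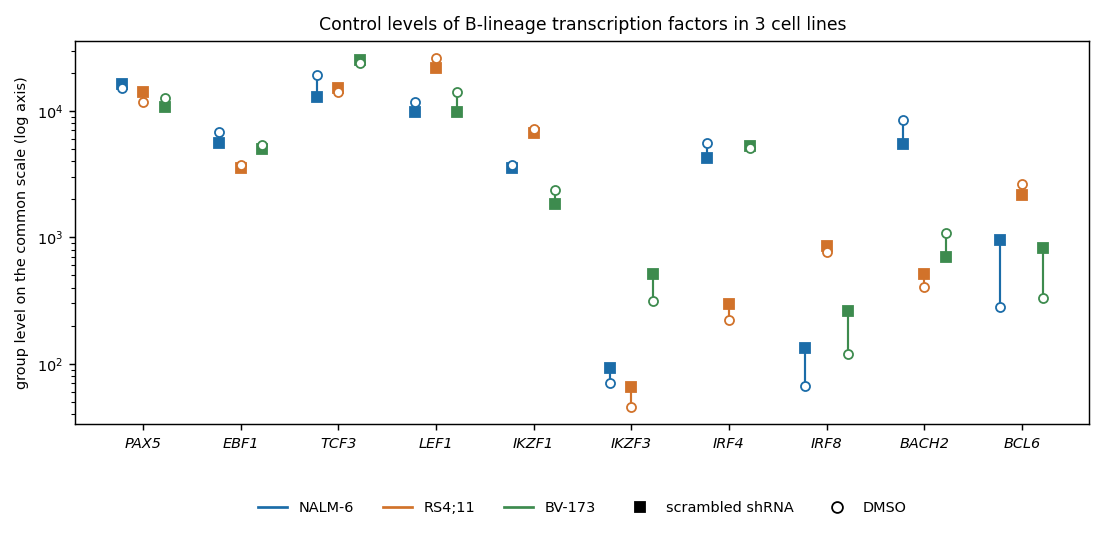
Levels of the 10 transcription factors in control cells on the common scale (log axis), with filled squares for scrambled shRNA, open circles for DMSO and colours for the 3 lines. PAX5, EBF1 and TCF3 differ by 1.35- to 1.69-fold between lines, while IRF4 and BACH2 differ by 20.2- and 14.7-fold.

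Compared per kilobase of transcript, *TCF3* and *LEF1* were the most abundant of the factors in DMSO cells of every line. *TCF3* stood at 4930, 3825 and 5650 per kb in the 3 lines and *LEF1* at 3572, 7748 and 3790, between the 98.0th and 99.0th percentile of listed genes. *PAX5* followed with 1788, 1395 and 1335 per kb. *IKZF3* was lowest in each line, at 7.95, 5.38 and 31.1 per kb, the 26.6th to 35.4th percentile. *IRF8* stood at 26.0, 303 and 42.1 per kb, so its higher levels after treatment started from the lower part of the range in NALM-6 and BV-173.

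Of the 10 members 4 kept one direction in all 3 lines under knockdown (*EBF1*, *TCF3* and *LEF1* lower, *IRF8* higher), beside 45.0% of all genes. Under palbociclib 5 did (*PAX5*, *EBF1* and *TCF3* lower, *IKZF1* and *IRF8* higher), beside 54.4% of all genes. The number with a common direction was therefore near the background in both.

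Genes that PAX5 and EBF1 are known to activate went in both directions under palbociclib, with 9 of 14 mean ratios above 0 and 5 below. Of 15 such genes 14 were listed in all 3 tables of a treatment. Under palbociclib 3 of the 14 were at least 1.5-fold higher in all 3 lines (*CD79A*, *CD72* and *FCRLA*) and none lower, beside 4.53% and 5.95% of all genes, and the median log2 ratio of the 14 was 0.18 beside 0.04 over all genes. *CD72*, an inhibitory co-receptor, went from 1094 to 3363, 3049 to 6459 and 116 to 223 in the 3 lines, and rose by limma (1.22, SE 0.19, adjusted p = 0.0463). The call was made in a fit that called no gene when NALM-6 or BV-173 was left out or a pseudocount of 10 was used.

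*CD79A*, a signalling chain of the B-cell receptor, went from 1870 to 6621, 11928 to 21607 and 6978 to 11402 (1.13, SE 0.27, limma adjusted p = 0.0762). The Fc receptor-like gene *FCRLA* went from 953 to 1620, 185 to 895 and 939 to 1774 (1.32, SE 0.34, limma adjusted p = 0.0896). In scrambled cells of NALM-6, scaled separately, *CD79A* stood at 6295 and *FCRLA* at 1902. In that line the palbociclib level of *CD79A* was thus near the scrambled level, and that of *FCRLA* was below it. In RS4;11 and BV-173 the palbociclib levels of both genes were above the scrambled levels. *IGLL1*, a surrogate light chain gene of the pre-B-cell receptor, was lower in all 3 lines, with 14317 to 8517, 13377 to 9207 and 17068 to 11327 (-0.63, SE 0.15, limma adjusted p = 0.0756), and *VPREB3* and *POU2AF1* had mean ratios of -0.29 and -0.37. *IGLL1*, *VPREB3* and *POU2AF1* were named after their values were seen. Under knockdown none of the 14 was past the fold in all 3 lines in either direction, beside 0.584% of all genes higher and 1.75% lower, and the median was 0.12 beside 0.00. *CD22*, another inhibitory co-receptor, had the largest mean ratio of the list there, with 1964 to 4631, 8811 to 22781 and 7310 to 10520 (1.04, SE 0.19, limma adjusted p = 0.0795). *CD79B* followed with 7074 to 8152, 1299 to 3057 and 2060 to 2824, and *CD72* with 1224 to 2143, 3556 to 6342 and 60.4 to 51.3.

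The recombination genes on the list were lower in BV-173 under both treatments. There *RAG1* went from 3536 to 925 and *RAG2* from 1047 to 401 with palbociclib, and from 2907 to 1665 and 753 to 375 with shCCND3. In the other lines both were higher with palbociclib, *RAG1* at 25143 and 30303 in NALM-6 and 5673 and 8294 in RS4;11, and *RAG2* at 2396 and 4067 and at 1418 and 1746. With shCCND3 *RAG1* was lower in these lines too, 15269 and 15001 in NALM-6 and 3800 and 2934 in RS4;11, while *RAG2* stood at 2795 and 3467 and at 934 and 671. *RAG1* and *RAG2* were named after their values were seen. BV-173 under palbociclib was also the comparison with the lowest *PAX5* and *EBF1* ratios, and a link with the *RAG1* and *RAG2* values was not tested. Other genes of the list went in both directions there, with *CD79A* higher and *IGLL1* lower.

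**Figure D4:**
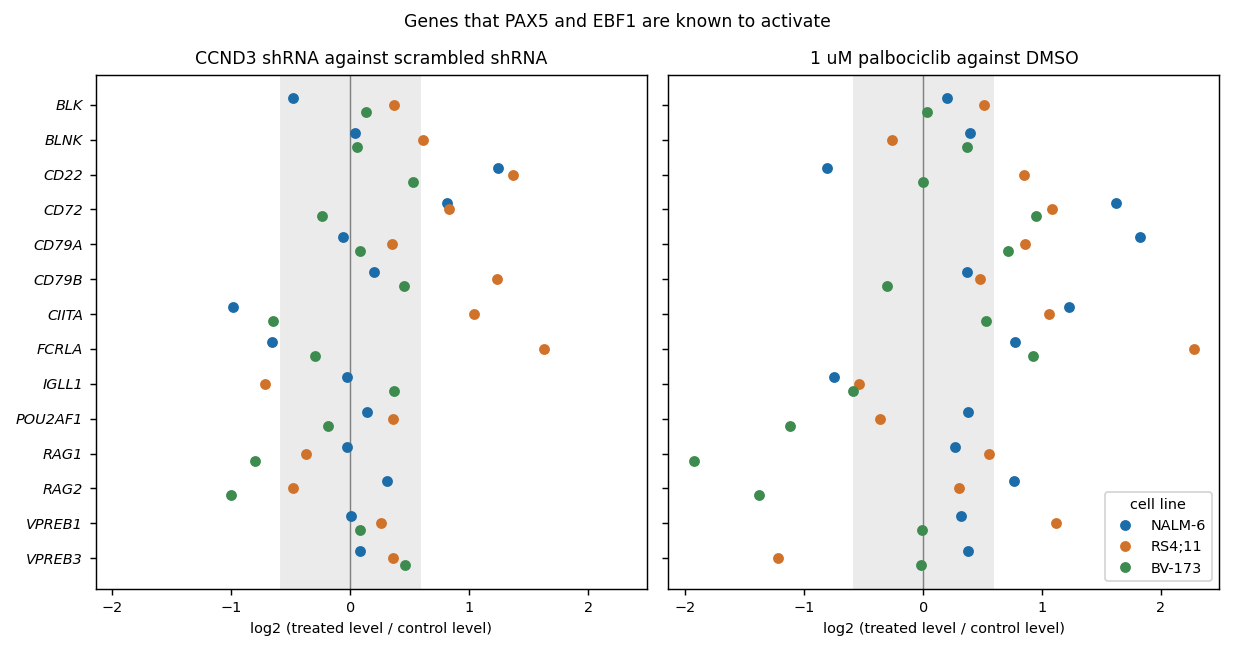
Log2 ratio of treated to control level (x axis) for 14 genes that PAX5 and EBF1 are known to activate (rows), under CCND3 shRNA (left) and palbociclib (right), 1 point per cell line, with the grey band marking ratios under 1.5-fold. CD72, CD79A and FCRLA lie right of the band in all 3 lines under palbociclib, and RAG1 and RAG2 lie left of it in BV-173.

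Among 11 genes that PAX5, BACH2 or BCL6 are known to hold down, none was past the fold in all 3 lines under knockdown (10 listed, median 0.09 beside 0.00). Under palbociclib 1 of 8 was, higher, where 4.53% of all genes were, with a median of 0.35 beside 0.04. That gene, *CCND2*, encodes cyclin D2 and went from 72.9 to 632 in NALM-6, 1.40 to 4.69 in RS4;11 and 853 to 2257 in BV-173 (2.09, SE 0.37, limma adjusted p = 0.0518), with the RS4;11 levels close to the bottom of the table. *CSF1R* had a mean ratio of 1.15 with opposite directions, since it went from 318 to 284 in RS4;11. *JCHAIN*, the joining chain of secreted antibody, had the largest mean ratio of the list in both treatments, 1.80 and 2.17. Its palbociclib levels were 11.1 and 107 in NALM-6, 8.34 and 66.1 in RS4;11 and 46133 and 54439 in BV-173. *PRDM1*, the regulator of the plasma cell programme and a classical target of BCL6 and BACH2, went from 43.2 to 41.6, 17.2 to 15.7 and 108 to 59.5 under knockdown. Under palbociclib it went from 40.2 to 33.6, 8.47 to 5.43 and 126 to 67.9, so its levels were lower in all 6 comparisons and did not track *JCHAIN*. *PRDM1* was named after its values were seen.

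*CD69*, an early activation marker, went from 260 to 481, 32.9 to 36.4 and 252 to 643 under knockdown. *HMOX1*, a heme oxygenase and BACH target, was at 1.98 and 2.00 in NALM-6, 63.6 and 152 in RS4;11 and 0.320 and 0.355 in BV-173.

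Of 27 other B-lineage transcription factors, all listed, *POU2F2* alone was at least 1.5-fold higher in all 3 lines, and it was so under both treatments. Under palbociclib 1 of 27 is no larger a share than the 4.53% of all genes, and under knockdown the share of all genes was 0.584%. The gene encodes OCT2, which works at immunoglobulin promoters and in the response of mature B cells. It went from 522 to 1643 in NALM-6, 419 to 957 in RS4;11 and 104 to 194 in BV-173 under knockdown (1.25, SE 0.17, limma adjusted p = 0.0773). Under palbociclib it went from 316 to 594, 108 to 286 and 40.0 to 93.9 and rose by limma (1.18, SE 0.17, adjusted p = 0.0432), in the fit that called no gene without NALM-6, without BV-173 or with a pseudocount of 10. Its palbociclib level was above the scrambled level of the same line in NALM-6 (522). In RS4;11 (419) and BV-173 (104) it was below the scrambled level, though the 2 treatments were scaled separately. The list as a whole lay at the background, with medians of 0.05 and -0.01 beside 0.00 and 0.04.

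*SPI1*, encoding PU.1, the partner of IRF4 and IRF8 on DNA, was higher in all 6 comparisons. It went from 1343 to 1785, 1835 to 2618 and 1869 to 3137 under knockdown (0.56, SE 0.13, limma adjusted p = 0.101). Under palbociclib *SPIB*, a relative of PU.1, went from 143 to 168, 216 to 818 and 226 to 420. Its scrambled levels, scaled separately, were 601, 687 and 944, so the palbociclib level was above both controls in RS4;11 alone. *ETS1* went from 2505 to 933, 1159 to 839 and 849 to 298 (-1.13, SE 0.26, limma adjusted p = 0.073). *RELB* of the NF-κB family went from 197 to 388, 765 to 818 and 242 to 321 under knockdown.

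The close relatives of the members gave no call by limma and none past the fold in all 3 lines. Of 9 Ikaros and E-protein relatives 8 were listed in all tables of a treatment, 6 of them with a mean ratio below 0 in each treatment, and the medians were -0.29 and -0.24. *IKZF2*, encoding Helios, went from 1945 to 1410, 513 to 155 and 10096 to 6829 under palbociclib (-0.92, SE 0.30, limma adjusted p = 0.13) and was lower in all 6 comparisons. *ID3*, an inhibitor of E proteins, went from 2397 to 3505, 1411 to 2036 and 1595 to 2321 under knockdown, and its relative *ID2* from 150 to 285, 99.8 to 149 and 316 to 470 under palbociclib. The scrambled levels of *ID2*, scaled separately, were 538, 333 and 825. With palbociclib *ID2* was thus above the DMSO control but below the scrambled control in each line. *ID1* stood at 23.1 or below in every group.

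Of 7 IRF relatives the medians were -0.10 and 0.06. *IRF9*, a component of the interferon-activated complex ISGF3, had the largest mean ratio in both treatments, 0.52 (SE 0.14, limma adjusted p = 0.132) and 0.67 (SE 0.19, limma adjusted p = 0.107), and was higher in all 6 comparisons. *IRF1* went from 1986 to 1026, 2808 to 2157 and 1827 to 1830 under knockdown, and *IRF2* had a mean ratio of -0.19 there. Under palbociclib the mean ratios of *IRF1* and *IRF7* were 0.20 and 0.15.

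For the 16 partners and relatives of BACH2, BCL6 and LEF1 the medians were 0.08 and -0.09, with 11 of 16 mean ratios above 0 under knockdown and 3 of 16 under palbociclib. *TCF7*, the relative of *LEF1*, went from 14.0 to 24.2, 135 to 477 and 5.75 to 5.50 under knockdown, and *MAFF*, a small MAF protein that pairs with BACH factors, from 43.4 to 10.9, 322 to 368 and 222 to 138 under palbociclib. Under palbociclib *TCF7* was lower in all 3 lines, from 25.6 to 12.7, 75.4 to 55.0 and 1.89 to 1.67, with a mean ratio of -0.55. The corepressor genes *TLE1* and *TLE3* had mean ratios of 0.27 and 0.24 under knockdown. *TLE3* had one of 0.72 under palbociclib, with levels of only 0.450 and 0.825 in NALM-6.

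The factors of other lineages lay near the background, with medians of -0.08 and -0.04. Of 14 such genes 10 were listed in all 3 knockdown tables and 9 in all 3 palbociclib tables. *CEBPB*, a myeloid factor, went from 839 to 260, 1007 to 428 and 1225 to 626 with palbociclib and fell by limma (-1.30, SE 0.20, adjusted p = 0.0454), with the same limits on the call. *KLF1*, an erythroid factor, was also at least 1.5-fold lower in all 3 lines, at levels of 4.70 or below, which makes 2 of the 9 beside 5.95% of all genes. *CEBPA* went from 15.1 to 28.8, 409 to 454 and 837 to 1521 under palbociclib, and *GATA3* from 345 to 656, 17.8 to 29.7 and 112 to 100 under knockdown. The knockdown mean ratios of *KLF1* and *CEBPA* were -0.29 and 0.28.

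The genes whose levels ran most like each member over the 12 groups were sought among 10065 genes with a mean level of at least 100, by Pearson's r of log2 levels on the common scale. The 12 groups come from 3 lines that stand apart and share the tables' scaling, so r reflects mainly the order of lines and is given as a description. *IKZF1* ran most like *CDK6* (r = 0.980), the kinase partner of cyclin D3, then *PTCH1* and *IGF1R*. *BACH2* ran most like *RETREG1* (0.987), *LDLRAD3* and *TLE4*, the last of these a corepressor on the list of partners. *IRF8* ran like *APOBR* (0.966), *DEAF1* and *CARD19*, and *IRF4* like *LAIR1* (0.972), *TMEM156* and *VAMP5*. *EBF1* had *SFR1* (0.965), *CHD4* and *PPP4R2*, and *PAX5* had *POGZ* (0.954), *UBXN7* and *MED13*. *IKZF3* had *TMEM236* (0.977), *CYBB* and *ANKMY1*, and *LEF1* had *P2RY8* (0.951), *ETV5* and *ADAM10*. *BCL6* had *PDIA3* (0.954), *PFKFB4* and *ARPC1B*, and *TCF3* the lowest likeness, with *C22orf39* (0.933), *TPD52* and *SMARCC1*.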

How the data were processed

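RNA-seq of 34 samples in 12 groups was used. Per the labels, the authors enriched mRNA with oligo dT, cleaned the reads by SOAPnuke, aligned them to hg38 by Bowtie2 and estimated levels by RSEM (versions not given in the sources used here). The authors' deposited tables hold a signal per group, which is a level scaled within the pair of groups compared, beside fold changes and p-values of the authors' comparison by DESeq2. The latter columns were not used. The tables were normalized separately and hold no values per sample, so the count test that was designed as the first choice could not be run, and precision comes only from the 3 lines.

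The log2 ratio of the 2 signals of a table (pseudocount 0) was fitted with limma 3.58.1 in R 4.3.3 (intercept, empirical Bayes, two-sided) over the 3 lines. Ratios of the lowest genes were compressed: their SD across genes was 0.11 to 0.41 where the mean of the 2 levels was under 1. It was largest at means of 16 to 64, 0.47 to 1.22, and was 0.31 to 0.85 at 1024 or more. All members had levels of 38.4 or above. Controls were compared across tables on a common scale (median of ratios). Python 3.11.15, pandas 2.3.3 and numpy 2.4.6 were used, and the fits were tested on simulated data. Alternatives were pseudocounts of 1 and 10, a level filter, a trended prior variance, centring, leaving out each line, a fold of 2, and a DMSO control for the knockdown, the last chosen after seeing the data.

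The members and gene lists were chosen with earlier results of these data known. Named from the lists were genes past 1.5-fold in the same direction in all 3 lines and the 3 largest mean ratios of a list in each treatment. A gene of the lists is not reported here. Positions and promoters are those of RefSeq (GRCh38.p14).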

Additional observations from a re-analysis of the deposited data

Results flagged for a closer look

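The knockdown ratio of *IRF4* differed between lines, by 2.21 on the log2 scale between RS4;11 (1.49, higher with shCCND3) and NALM-6 (-0.72, lower). That of *BCL6* differed by 2.69 between BV-173 (0.73) and NALM-6 (-1.96). Both were picked out because the group levels of the lines moved in opposite directions past 1.5-fold against scrambled cells. With 1 level per group the difference was not tested. Against DMSO cells on the common scale the NALM-6 log2 ratio was -1.08 for *IRF4* and -0.16 for *BCL6*, the latter within the fold.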

How the results depend on the processing

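No paired analysis was possible because each table holds 1 level per group, and for the same reason leaving out single samples was not run. Of 240 limma values of the members under the alternatives 227 kept their direction and their side of the threshold. The 2 that passed were those of *IRF8* with a trended prior variance. That prior gave 774 calls under knockdown, 1907 under palbociclib and 650 in the difference, beside 0, 660 and 0. Palbociclib calls numbered 0 with a pseudocount of 10, 1237 with a mean level of at least 10, and 0, 230 and 0 without NALM-6, RS4;11 and BV-173. Directions turned in 11 values, all with an adjusted p of 0.33 or above by limma. Under knockdown these were *IKZF3* without BV-173 (0.26), *IRF4* without RS4;11 (-0.59), *BACH2* (-0.03) and *BCL6* (0.46) without NALM-6. Under palbociclib they were *IKZF3* without NALM-6 (-0.12), *IRF4* after centring (-0.01) and without RS4;11 (-0.37), and *LEF1* without BV-173 (0.15). In the difference they were *IKZF3* without BV-173 (0.17), *IRF4* (-0.23) and *BACH2* (0.07) without RS4;11. At a fold of 2, 1, 1 and 0 members passed under knockdown in the 3 lines in this order, and 0, 0 and 2 under palbociclib. The share of all genes past a fold of 2 was not computed, so whether these counts exceed it cannot be said. After centring on the table median, 6 members instead of 4 were past 1.5-fold in BV-173 under palbociclib, and the other counts did not change. The share of all genes was not computed for that setting either. The knockdown was also set against DMSO cells on the common scale, a choice made after seeing the data. Members past 1.5-fold then numbered 5 in BV-173 and 4 in each of the other lines. The NALM-6 count was the same as against scrambled cells, but its genes changed. There *BCL6* (log2 ratio -0.16) and *BACH2* (0.01) fell within the fold, while *IKZF3* (0.81) and *IRF8* (1.44) passed it. The share of all genes past 1.5-fold was not computed for this control, so these counts have no background. Without replicate values, differences of small size could not be assessed.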
